A study of Homo sapiens with 4 samples.

Results

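The genes described here are 52 nuclear genes that shape, build, renew and supply mitochondria, sorted by role into fusion and fission, cristae, biogenesis regulators, mitochondrial DNA upkeep, mitophagy, proteases, protein import with its chaperones, and outer membrane channels. A peak of H4K20me1, histone H4 monomethylated at lysine 20, belonged to a gene when the deposited annotation named that gene for it and did not class it as distal intergenic. By that rule 38 of the 52 genes held 73 peaks, out of 19663 such peaks at 9020 genes and 25514 peaks in all. The series profiled the mark by CUT&Tag, in which an antibody tethers the Tn5 transposase to marked chromatin. Its 4 libraries of 100000 cells came from Kasumi-1, an established acute myeloid leukemia line with the t(8;21) fusion. In 2 of them, labelled WT, the cells had received a non-targeting guide (sgNT), and in 2 they were labelled SETD8 knockout (sgSETD8, made with CRISPR/Cas9). SETD8, also called KMT5A, is the enzyme that writes the mark. The series title names mitochondrial homeostasis as a subject of the study, and the comparison asks whether the mark over these genes differed between the groups.

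Mitochondria join through mitofusins and OPA1 and divide through the dynamin DNM1L, while the MICOS complex holds the necks of the cristae. New mitochondria are made under the coactivators PPARGC1A, PPARGC1B and PPRC1 with the factors NRF1, GABP and ESRRA. Their DNA is copied by POLG with its partner POLG2 and the helicase TWNK, and transcribed by POLRMT with TFAM and TFB2M. Damaged mitochondria are removed by mitophagy, through PINK1 or through receptors such as BNIP3L, and nearly all mitochondrial proteins enter through the TOM and TIM translocases. H4K20me1 is found over the bodies of many active genes and also takes part in chromosome compaction.

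The deposited table gives 1 value per group and peak, so no difference below has a replicate check. The labels number a second library of each guide #2 and do not speak of separate cultures. Its header does not say which group comes first. Treated precedes control in the name of the deposited comparison, and by that order the knockout would come first, but values are given here as first-listed and second-listed. Reads recovered from the values summed to 2791207 and 2682916 in the first-listed and second-listed columns. A log2 ratio is first-listed over second-listed on the authors' scaling, and its bracketed range is an exact Clopper-Pearson 95% interval that covers counting error only. If fragments were counted by both of their ends, which is not known, these intervals are too narrow. Scaling the columns to equal reads in peaks would move every ratio by −0.11, so each gene is read against the median of all 9020 genes, 0.09 (quartiles −0.13 and 0.30), which moves with it. KMT5A itself held 3 peaks with a ratio of 0.27, which measures neither the edit nor the enzyme.

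Most of the mitochondrial genes sat close to the bulk of the genome, and of the 38 measured, CHCHD6 and TFB1M lay farthest from it. CHCHD6, a subunit of the MICOS complex, was the highest at 0.62 (0.54 to 0.69), and TFB1M, the methyltransferase that modifies the small mitochondrial ribosomal RNA, the lowest at −1.20 (−1.92 to −0.51). The median over the 38 genes was 0.07, with 18 above and 20 below the all-gene median, and 23 lay between the all-gene quartiles. A log2 ratio of at least 0.5 was found for 1 of the 38, against 11% of all genes with a peak, and one of −0.5 or less for 1, against 5.72%. Neither count is above its background. The interval lay wholly above the all-gene median for 2 genes, CHCHD6 and VDAC2, against 16.1% of all genes. It lay wholly below for 4, TFB1M, AFG3L2, YME1L1 and TOMM40, against 14%. With reads halved, as for counted pairs of ends, the intervals of YME1L1 (−0.58 to 0.14) and TOMM40 (−1.05 to 0.18) took in that median. In the authors' deposited table, made with DESeq per the submitters' processing notes, unadjusted p was under 0.05 for 5 of the 73 peaks in the higher direction, against 3.89% of all 19663 such peaks, and for 1 in the lower direction, against 1.31%. These 6 peaks belonged to CHCHD6 (4), POLG (1) and TFB1M (1). At an adjusted p under 0.05 there were 0 of 73 member peaks and 0% of all such peaks, and the smallest adjusted p of a member peak was 0.764.

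**Figure D1:**
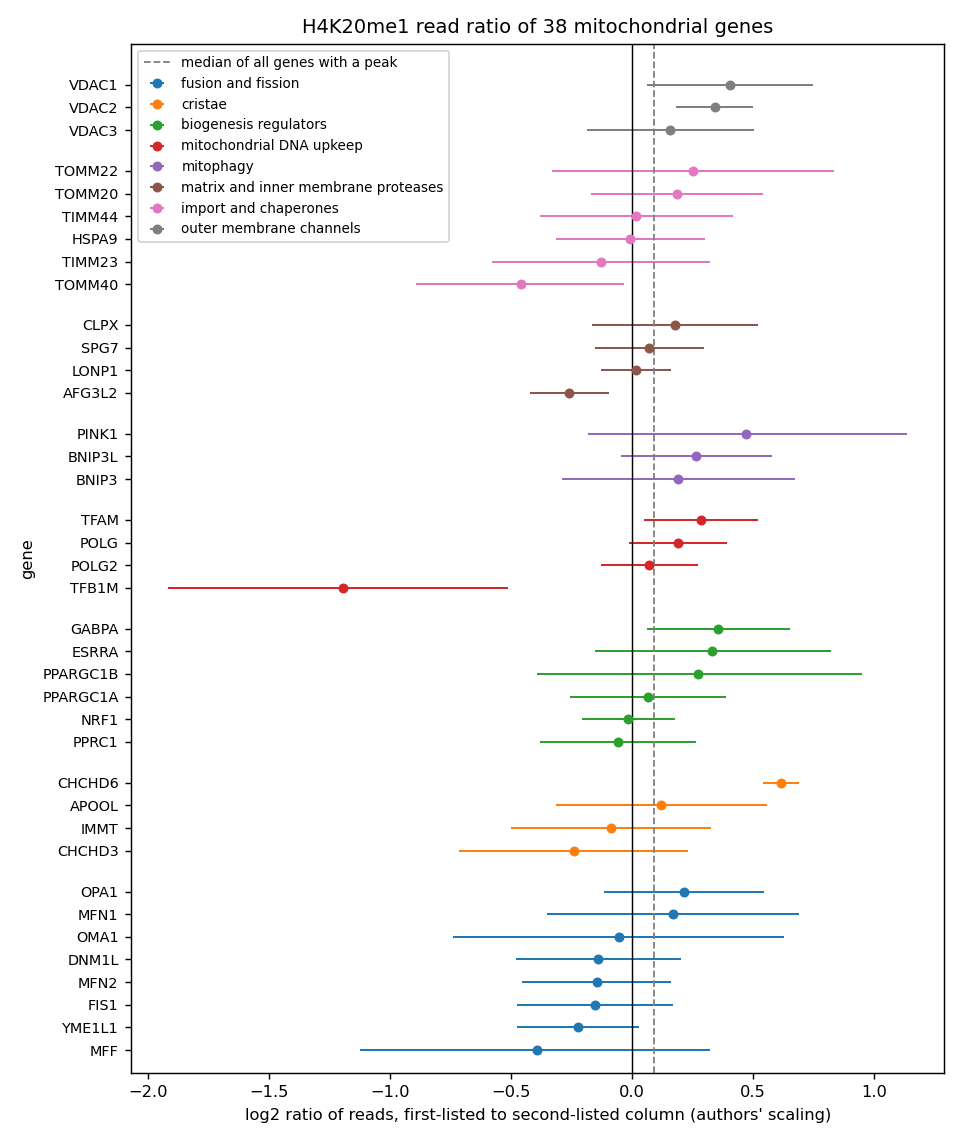
Log2 ratio of H4K20me1 reads, first-listed over second-listed column, for the 38 genes with a peak, grouped by role (points), with exact 95% counting intervals (bars). The dashed line is the median of all genes with a peak, 0.09. Most bars cross it, while CHCHD6 at 0.62 and TFB1M at −1.20 lie farthest from it.

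A peak was present at 73.1% of the 52 genes, against 37.8% of 20033 protein-coding genes. Among another 90 genes of the same pathways the share was 45.6%. Both lists were chosen with earlier results of these data known, so these shares describe the lists only. Longer genes held peaks more often: in the whole annotation 19.4% of genes under 10 kb, 38.8% of those from 10 to 50 kb and 53.2% of longer ones did. Among the mitochondrial genes these shares were 2 of 7, 24 of 31 and 12 of 14. Of the 45 genes with a start site in the RefSeq promoter table, 28 had a peak that covered a start (62.2%), against 20.5% of 15842 protein-coding genes in that table. Gene activity was not measured in these files, so its part in this difference was not tested. One peak was the rule, at 21 of the 38 genes, and below a gene has 1 peak where no number is given. The peaks were 352 to 4652 bp wide (median 1091) and held 25 to 1105 first-listed reads (median 81) and 23 to 629 second-listed reads (median 91). Promoters, up to 3 kb from a transcript start, held 46 of the 73 peaks (63.0%), against 44.4% of all peaks that were not distal intergenic.

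Without a peak of their own were MIEF1 and MIEF2, adaptors that recruit DNM1L, the MICOS subunit APOO, GABPB1, TFB2M, POLRMT, TWNK, the mitophagy receptors FUNDC1 and PHB2, the protease CLPP, and TOMM70, TIMM50, HSPD1 and HSPE1 of import and folding. For 5 of these 14, a peak lay over the start site or within 1 kb of it and was named for a neighbour. TFB2M shared its start with a peak named for CNST (chromosome 1, 246564765 to 246566910), with 167 and 113 reads and a log2 fold change of 0.62 (0.27 to 0.98). TOMM70 shared one named for LNP1, with 260 and 287 reads (−0.09, −0.33 to 0.16). GABPB1 lay 936 bp from a peak named for GABPB1-AS1, with 97 and 135 reads (−0.42, −0.81 to −0.03). The divergent chaperone genes HSPD1 and HSPE1 lay under 1 peak named for the readthrough gene HSPE1-MOB4 (chromosome 2, 197498811 to 197500571), with 236 and 205 reads (0.25, −0.02 to 0.54). In such shared promoters the mark of one gene cannot be told apart from that of its neighbour. Of the other unmeasured genes, the 7 with a start in the table had their nearest peak 19228 bp to 330014 bp away.

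**Figure D2:**
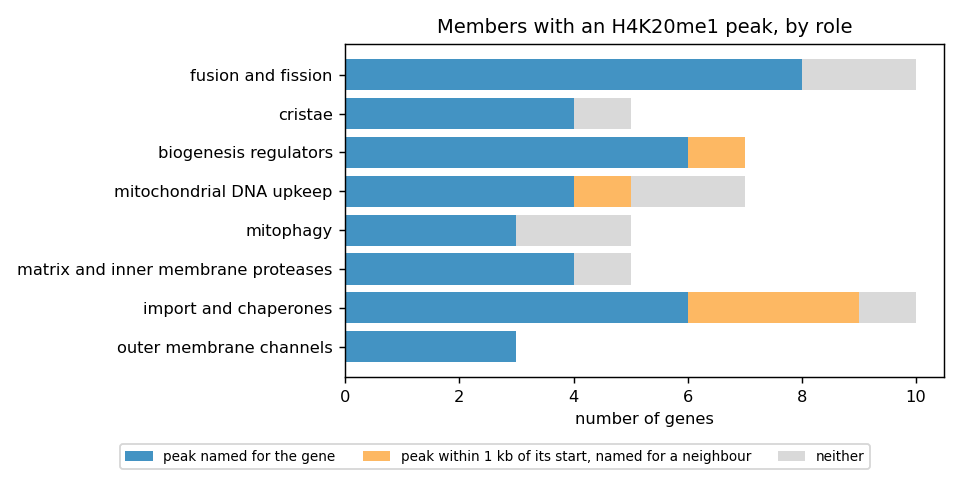
Number of genes in each role with a peak named for the gene (blue), with a peak within 1 kb of the start that is named for a neighbour (orange), or with neither (grey). Import and chaperones hold 3 of the 5 neighbour-named cases, and all 3 outer membrane channels have a peak of their own.

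The promoters of these genes were searched for sequence motifs. In windows from 250 bases before to 50 after each start (RefSeq, GRCh38.p14), the NRF1 core GCGCNTGCG on either strand was present in 20 of 57 windows of the mitochondrial genes (35.1%), against 7.47% of all 35116 windows and 9.53% of 22198 windows of protein-coding genes. The GABP (ETS) motif CCGGAAG was in 18 windows (31.6%), against 10.3% and 12.8%. The ERR motif AAGGTCA (3.51%, against 3.92% of all) and the YY1 motif AAGATGGCG (3.51%, against 1.75% of all) were each in 2 windows. That is too few to compare the shares. Overlaps between motifs were allowed. At least 1 of the first 2 motifs was in a window of 30 of the 45 genes, among them TFAM, TFB1M, TFB2M, POLRMT, POLG2, TOMM20, TOMM40, OPA1 and LONP1. The share of all genes with at least 1 of them was not counted, so this number is a description only. Among windows of protein-coding genes, a peak covered the start in 33.8% of those with the NRF1 core and in 15.9% of those without it. In the mitochondrial genes it did so in 13 of 20 windows with the core and 18 of 37 without. The read ratio was close between them, with a median of 0.07 over 13 measured genes with the core and 0.04 over 20 without. A match describes letters, not a bound site.

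Stretches of up to 150 bases before the start are shown, where the start is clear of other genes, for the gene with the most promoter reads among those with a peak over the start in its role, and for TFB1M and the HSPD1 and HSPE1 pair, which were chosen after their values were seen. Sequences run 5′ to 3′ on the strand of the gene, with matches to any of the 4 motifs in capitals. They are FIS1 (chr7:101245082-101245231, minus strand), CHCHD6 (chr3:126704090-126704239, plus strand), LONP1 (chr19:5720453-5720602, minus strand), TFB1M (chr6:155314485-155314634, minus strand) and the 104 bases between the starts of HSPD1 and HSPE1 (chr2:197500275-197500378, plus strand). FIS1 held the GABP motif beside its start, TFB1M an NRF1 core that reads on both strands and a GABP motif, and the chaperone pair an NRF1 core. CHCHD6 and LONP1 held none of the 4 in the bases shown.
FIS1: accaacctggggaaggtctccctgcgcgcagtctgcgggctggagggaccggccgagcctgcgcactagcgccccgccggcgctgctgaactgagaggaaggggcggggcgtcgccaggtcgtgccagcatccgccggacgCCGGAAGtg
CHCHD6: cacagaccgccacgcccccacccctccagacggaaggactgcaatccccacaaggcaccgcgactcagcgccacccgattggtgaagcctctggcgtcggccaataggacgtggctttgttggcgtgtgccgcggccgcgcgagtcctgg
LONP1: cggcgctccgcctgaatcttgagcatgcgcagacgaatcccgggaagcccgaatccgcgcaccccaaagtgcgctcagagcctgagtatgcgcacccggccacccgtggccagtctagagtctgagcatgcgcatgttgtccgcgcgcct
TFB1M: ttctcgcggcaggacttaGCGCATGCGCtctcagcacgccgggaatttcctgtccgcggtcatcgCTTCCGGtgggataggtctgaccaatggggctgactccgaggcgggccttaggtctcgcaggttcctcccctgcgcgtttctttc
HSPD1-HSPE1: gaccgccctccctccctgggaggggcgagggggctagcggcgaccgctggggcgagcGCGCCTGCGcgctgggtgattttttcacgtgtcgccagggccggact

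Of the 8 measured genes of fusion and fission, 6 were below the all-gene median and 2 above. The 6 include OMA1, whose only peak lay outside the gene. Summed over the role, 991 and 1103 reads gave −0.10 (−0.22 to 0.03), and no member reached 0.5 in either direction. YME1L1, an inner membrane protease that cuts OPA1, held the most reads, 238 and 289, and its interval of −0.48 to 0.03 around −0.22 lay below the all-gene median. Its peaks went apart. The promoter peak (chromosome 10, 27155226 to 27157074) held 202 and 263 reads (−0.32, −0.60 to −0.05), while a peak in intron 7 of 17 held 36 and 26 (0.53, −0.24 to 1.31).

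OPA1, the inner membrane fusion dynamin, was the highest of the role at 0.21 (−0.12 to 0.55), with 164 and 147 reads at its promoter. The mitofusins MFN1 (67 and 62 reads, 0.17) and MFN2 (165 and 190 reads over 3 peaks, −0.15) fuse outer membranes, and their intervals overlapped widely. DNM1L, which constricts the organelle, had 137 and 157 reads (−0.14). Of its receptors, FIS1 had 153 and 177 over 2 peaks (−0.15), and MFF the lowest ratio of the role on few reads, 30 and 41 (−0.39, −1.12 to 0.32). The weaker FIS1 peak, with 52 and 55 reads, lay 6.79 kb outside the RefSeq span of that gene. The peak named for OMA1, a stress-activated protease, lay 181 kb outside that gene, inside DAB1, and its 37 and 40 reads say little of OMA1.

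In the cristae role, CHCHD6 differed from its partners. It held 11 peaks, a number that 144 of the 9020 genes reached, and only 45 genes had more reads. Its 3711 and 2520 reads made up 33.6% of all first-listed reads of the mitochondrial genes. IMMT, the core MICOS subunit, had 96 and 106 reads at its promoter (−0.09, −0.50 to 0.33), and its close relative CHCHD3 had 70 and 86 (−0.24, −0.72 to 0.23). APOOL, a lipid-binding subunit, had 93 and 89 reads over 2 peaks (0.12, −0.31 to 0.56). Summed over the role the ratio was 0.56 (0.49 to 0.63), and without CHCHD6 it was −0.061 (−0.31 to 0.19), so that 1 gene decided it. The sum over all 38 genes, 11041 and 9869 reads, went from 0.22 (0.18 to 0.26) to 0.053 without it.

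Within CHCHD6 the high reads formed a cluster in the last part of the gene. The 7 peaks more than 180 kb from the start, a limit set after seeing the values, spanned 40 kb (chromosome 3, 126896262 to 126936225, introns 5 and 6 of 7 and the start of another transcript). They held 3513 and 2347 reads, 94.7% of the first-listed reads of the gene, with a ratio of 0.64 (0.56 to 0.71). All 7 were above 0, from 0.28 to 0.89. The widest held 1105 and 629 reads (chromosome 3, 126924586 to 126929237, 0.87, interval 0.73 to 1.01, unadjusted p 0.00832 and adjusted p 0.877 in the authors' deposited table), and 45 peaks in the genome held more. Of the other peaks, one held 879 and 583 reads (0.65, unadjusted p 0.0486), one 393 and 252 (0.70, 0.0494), and the one farthest from the start 143 and 80 (0.89, 0.0267).

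Nearer the start, the promoter peak of CHCHD6 held 39 and 37 reads (0.13, −0.55 to 0.82), and the first 4 peaks together 198 and 173 (0.25, −0.05 to 0.55). In the 500 kb on either side, 19 peaks named for other genes held 3022 and 2830 reads, with a ratio of 0.15 (0.08 to 0.23) and peak values from −0.45 to 0.54. Over a window of 5 Mb the other peaks had a median log2 fold change of 0.22. Since the 180 kb limit followed from the values, these ranges are a description only, and they overlap: 2 of the first 4 peaks (0.47 and 0.35) lie within the range of the 7, and neighbour peaks reach above the lowest of the 7.

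**Figure D3:**
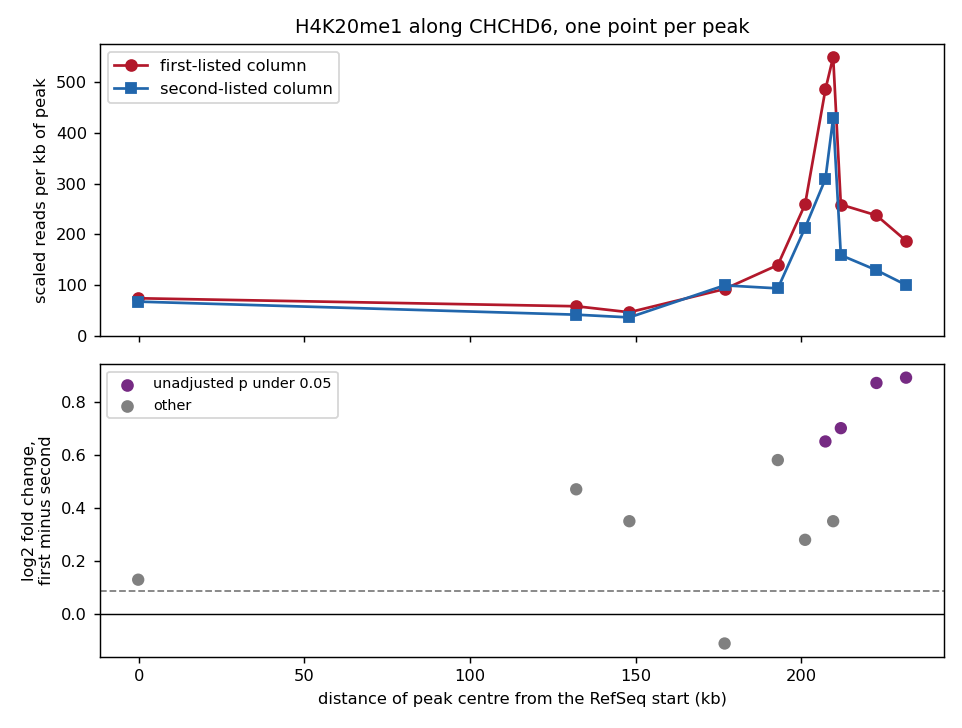
H4K20me1 along CHCHD6 by distance of each of its 11 peaks from the gene start (kb). The upper panel gives scaled reads per kb of peak in both columns, and the lower panel the authors' log2 fold change, with the 4 peaks at an unadjusted p under 0.05 in purple and the all-gene median dashed. Reads per kb peak beyond 180 kb, where fold changes run from 0.28 to 0.89, and the promoter peak is at 0.13.

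Regulators of biogenesis straddled the all-gene median, 3 above and 3 below, and their 1098 and 1073 reads gave 0.09 (−0.03 to 0.21). GABPA, the DNA-binding subunit of GABP, was highest, with 214 and 174 reads at its promoter (chromosome 21, 25732940 to 25735339, 0.36, 0.06 to 0.65). ESRRA, a nuclear receptor that works with PPARGC1A, followed with 81 and 67 reads (0.33, −0.15 to 0.82). PPRC1, a coactivator of the PPARGC1 family, was lowest at −0.06 (−0.38 to 0.26), with 156 and 169 reads over 2 peaks.

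NRF1 held the most reads of the role, 440 and 463 over 4 peaks, with a ratio of −0.02 (−0.21 to 0.17). Of these, 3 peaks near its start had log2 fold changes of 0.15, 0.06 and 0.03, and a weaker one in intron 1 of 10, with 40 and 65 reads, gave −0.64 (−1.25 to −0.05). PPARGC1B had 1 intron peak of 43 and 37 reads (0.27). PPARGC1A held 4 peaks with 164 and 163 reads in sum (0.07, −0.26 to 0.39), and 2 of them lay 65.2 and 177 kb outside its RefSeq span. The peak at the start of one of its transcripts held 55 and 63 (−0.14, −0.69 to 0.41).

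Upkeep of mitochondrial DNA had the widest spread of the 8 roles, from −1.20 to 0.28. TFB1M had 1 peak, over its start (chromosome 6, 155314072 to 155314684, the promoter printed above), with 26 first-listed and 62 second-listed reads. This peak was weak: by reads it ranked 19875 of 25514 peaks, below the median signal. Only 0.486% of all peaks had a lower log2 fold change than its −1.20, at an unadjusted p of 0.00523 and an adjusted p of 0.764 in the authors' deposited table. Other peaks within a 5 Mb window had a median of 0.13. TFB2M, its relative that starts transcription, had no peak of its own, and the shared peak over its start gave 0.62.

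POLG, the polymerase that copies mitochondrial DNA, carried 2 peaks with log2 fold changes of opposite sign. The one over its start (chromosome 15, 89332984 to 89334836) held 175 and 238 reads (−0.39, −0.68 to −0.10). The other, 5.26 kb into the gene near the start of another transcript (89329028 to 89330110), held 251 and 151 (0.79, 0.49 to 1.09). In the authors' deposited table the start peak had an unadjusted p of 0.295 (adjusted 0.998), and the other 0.034 (adjusted 0.963). The intervals of the 2 peaks do not overlap, but they cover counting error only. The sum of 426 and 389 reads gave 0.19 (−0.01 to 0.39), a gene-level value that shows neither peak. POLG2, the accessory subunit, had a single deep promoter peak of 419 and 415 reads (0.07, −0.13 to 0.27). It lies on chromosome 17, where peaks in the 5 Mb window had a median of −0.14.

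TFAM, which packages mitochondrial DNA and starts its transcription, had 330 and 282 reads over 3 peaks (0.28, 0.05 to 0.52), the highest of the role. Its promoter peak held 191 and 179 reads (0.15), intron 5 of 6 held 68 and 54 (0.39), and the 3′ UTR 71 and 49 (0.59, 0.05 to 1.15). All 3 were above 0, with the end of the gene highest, though the intervals overlap. The role as a whole had 1201 and 1148 reads, with a ratio of 0.12 (0.00 to 0.24).

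Mitophagy genes were few: 3 of 5 had a peak, all above the all-gene median, with 314 and 270 reads in sum and a ratio of 0.27 (0.04 to 0.51). BNIP3L, an outer membrane receptor that clears mitochondria in maturing red cells, held the most, 187 and 162 over 2 peaks (0.26, −0.05 to 0.58). At its start 79 and 96 reads gave −0.22 (−0.67 to 0.22), and 7.83 kb downstream 108 and 66 gave 0.77 (0.31 to 1.23, unadjusted p 0.0627 in the authors' deposited table). As in POLG, the peak at the RefSeq start was lower and the other higher. The annotation put both of these higher peaks within 1 kb of another transcript start and classed them as promoter. PINK1, the kinase that flags depolarized mitochondria, had 1 intron peak of 48 and 36 reads, with the highest ratio of the role, 0.47, and a wide interval (−0.18 to 1.14). BNIP3, a hypoxia-induced receptor, had 79 and 72 reads in an exon peak (0.19, −0.29 to 0.67), the lowest of the role.

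Among the proteases that guard protein quality, AFG3L2 stood lowest. This subunit of the m-AAA protease of the inner membrane had 556 and 693 reads and a ratio of −0.26 (−0.42 to −0.10). Both of its peaks were below 0, the promoter peak (chromosome 18, 12373194 to 12377489) with 508 and 620 reads (−0.23, −0.40 to −0.06) and one in intron 9 of 16 with 48 and 73 (−0.55, −1.10 to −0.00). Peaks within its 5 Mb window had a median of −0.10. SPG7, the partner subunit, did not share this, with 331 and 328 reads over 2 peaks (0.07, −0.15 to 0.29).

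LONP1, the matrix protease that also binds mitochondrial DNA, held the most reads of the role, 755 and 777, and a ratio of 0.02 (−0.13 to 0.16). Its 3 peaks ran from −0.31 at the start (92 and 119 reads) through −0.10 in the middle (144 and 161) to 0.12 near the end (519 and 497). CLPX, the unfoldase that feeds CLPP, was highest with 150 and 138 reads (0.18, −0.17 to 0.52). Together the role had 1792 and 1936 reads and a ratio of −0.05 (−0.15 to 0.04).

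All 7 peaks of the 6 measured import genes were classed as promoter, against 44.4% of all peaks that were not distal intergenic. The peak of TOMM20 and 1 of HSPA9 were so classed by another transcript, 5.49 and 12.1 kb from the RefSeq start. In sum the role had 638 and 675 reads, with a ratio of −0.02 (−0.18 to 0.13). TOMM40, the pore of the outer membrane translocase, was lowest, with 79 and 113 reads (chromosome 19, 44890576 to 44891377, −0.46, −0.89 to −0.03). TOMM22, its central receptor, was highest, with 56 and 49 (0.25, −0.33 to 0.83). The receptor TOMM20 had 142 and 130 reads 5.49 kb inside the gene (0.18), while the peak over its start was named for SNORA14B, a small RNA gene, and held 205 and 235 (−0.14, −0.42 to 0.14).

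The inner membrane channel TIMM23 had 80 and 91 reads (−0.13). TIMM23 has a near-identical copy, TIMM23B, and reads may be split between them. TIMM44, which tethers the import motor, had 106 and 109 reads (0.02). HSPA9, the motor chaperone, held the most reads of the role, 175 and 183 over 2 peaks (−0.01, −0.31 to 0.30). None of these intervals lay apart from the all-gene median.

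The 3 voltage-dependent anion channels, which pass metabolites across the outer membrane, were the one role with every member measured and every member above the all-gene median. Their 1037 and 863 reads, most of them from VDAC2, gave 0.32 (0.19 to 0.45). VDAC2 held 724 and 595 reads (0.34, 0.18 to 0.50) in 4 peaks whose log2 fold changes, 0.29 to 0.36, were close to one another. One of these lay 45.8 kb outside its RefSeq span, in intron 2 of 3 of SAMD8. VDAC1 had 164 and 129 reads over 2 peaks (0.40, 0.06 to 0.75), and VDAC3 149 and 139 (0.16, −0.19 to 0.50). The intervals of VDAC1 and VDAC3 took in the all-gene median. The neighbourhood medians in 5 Mb were 0.21 for VDAC2, 0.09 for VDAC1 and 0.12 for VDAC3.

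The peaks were also described by their position in the gene. Of 46 promoter peaks, 24 were above 0 and 21 below, with a median of 0.04, against a median of 0.09 over all promoter peaks and 61.2% above 0. Of 27 peaks in introns, exons or the 3′ UTR, 22 were above and 5 below, with a median of 0.28, against 0.10 over all such peaks and 60.7% above. Without the 8 such peaks of CHCHD6, 15 were above and 4 below, with a median of 0.18 over 19. Of the promoter peaks, 41 belong to genes with a start in the RefSeq table. The 27 of these within 1 kb of such a start had a median of 0.00, and the 14 farther away 0.15. Peaks of 1 gene are not independent, and no test was made. Of the 17 genes with several peaks, 9 had peaks on both sides of 0 (52.9%), against 56.7% of 3910 such genes in the table.

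**Figure D4:**
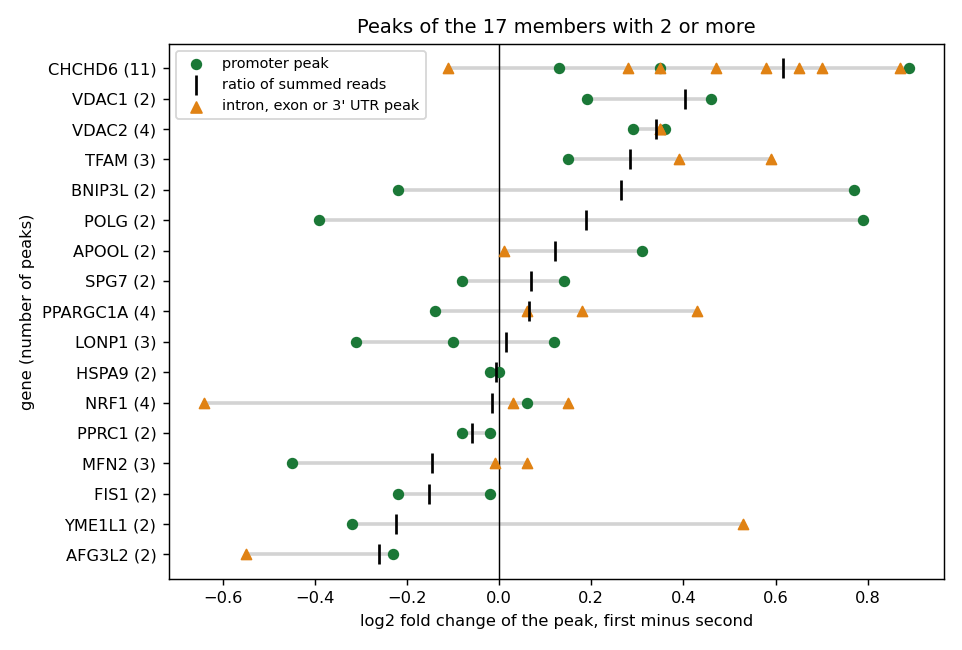
Authors' log2 fold change of every peak of the 17 genes with 2 or more peaks (circles, promoter; triangles, intron, exon or 3′ UTR), with the ratio of summed reads as a black tick. VDAC2 is tight, while POLG and BNIP3L have 1 peak on either side of 0.

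Of another 90 genes of the same pathways, 41 had a peak (45.6%, against 37.8% of protein-coding genes), with a median ratio of 0.01. Of these, 17 were above and 24 below the all-gene median of 0.09, and 23 were above 0, against 61.9% of all genes. At 0.5 or more were 5 of 41, against 11% of all genes, and at −0.5 or less 3, against 5.72%. MTX2, of the machinery that inserts outer membrane proteins, was highest, with 62 and 33 reads (0.97, 0.33 to 1.62), and DNAJC19, a co-chaperone of the import motor, lowest, with 33 and 66 (−0.94, −1.59 to −0.32). By role, the counts above the all-gene median were 2 of 8 for fusion and fission, 1 of 3 for cristae, 3 of 4 for biogenesis regulators, 4 of 6 for mitochondrial DNA upkeep, 1 of 5 for mitophagy, 4 of 5 for proteases and 2 of 10 for import. The import count includes PAM16, placed below that median on 1 read in each column (interval −6.24 to 6.35). In mitophagy most of these 41 genes thus lay below the all-gene median, while the 3 measured genes described above lay over it. Of their 78 peaks, the authors' deposited table gave 7 an unadjusted p under 0.05 in the higher direction, against 3.89% of all such peaks, and 2 in the lower, against 1.31%, and 0 had an adjusted p under 0.05.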

How the data were processed

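H4K20me1 CUT&Tag was analysed from 1 deposited table of 4 libraries. Per the submitters' processing notes the authors used cutadapt, Bowtie2, DESeq and hg38. The peak caller is not given in the sources used here, nor are tool versions or how many libraries stand behind a value. The deposited values are log2 scaled reads per group, their log2 fold change, and a p-value and adjusted p-value, as the values themselves showed. The fold column matched the difference of the group columns within 0.01 in all 25514 peaks.

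Every value from 1.5 to 5.5 in the authors' log2 columns equals log2 of a whole number plus a constant (0 and −0.057) within 0.0051, so whole reads were recovered, summed per gene and compared as a ratio with an exact Clopper-Pearson interval. At higher values rounding blurs single reads. The recovery and the intervals were tried on simulated reads that held counting error only. That trial cannot speak to spread between libraries or to fragments counted by both ends. Exact recovery was checked there only for values from 1.5 to 5.5. With 1 column per group no test was made here. Neither a no-antibody library nor a spike-in was analysed here, and the values cannot show an even loss of the mark. Genes were matched by symbol (52 of 52 in RefSeq GRCh38.p14).

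Every measured gene was named. Reads and interval were given for the most-read, highest and lowest of each role, genes with a peak at unadjusted p under 0.05 and genes with 5 or more peaks, and for other genes where they add to a role. The members and lists were chosen with earlier results of these data known. Alternatives covered assignment, signal, class, scaling, regions, weighting and the deepest gene. Python 3.11.15, pandas 2.3.3, SciPy 1.17.1 and Matplotlib 3.10.9 were used.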

Additional observations from a re-analysis of the deposited data

Results flagged for a closer look

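Signal outside the peaks compared above was found within PPARGC1A. The annotation names this gene for 4 distal intergenic peaks, 40.9 to 117 kb before the start it refers to, with 283 first-listed and 325 second-listed reads (log2 ratio −0.14, exact 95% counting interval −0.38 to 0.09). They hold more reads than the 164 and 163 in its 4 counted peaks. The outermost held 108 and 174 reads (−0.63) and the nearest 74 and 48 (0.68), so they went both ways. All 4 lie inside the RefSeq span of PPARGC1A (chromosome 4, 23792021 to 24472905), though they were classed as distal intergenic. With peaks taken by RefSeq span and 1 kb, the ratio of PPARGC1A was −0.14 (−0.33 to 0.04), against 0.07 in its counted peaks. Whether these 4 peaks bear on the activity of PPARGC1A was not tested.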

How the results depend on the processing

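No replicate could be left out, since each group has 1 column, and no paired analysis was possible because the columns carry no replicate. Among the sums by role, medians and counts, 92 values under the alternatives stayed within the counting interval or within 1.5 times the count. Some of these 92 could not move, because the alternative left their peaks unchanged, as leaving out CHCHD6 did for every role but cristae. Another 23 moved beyond these limits and 2 reversed. For medians, the allowed shift to either side was that of the interval over all member reads. In all, 3 values changed sign. The cristae ratio and the median over members were the 2 that reversed. The ratio of biogenesis regulators went from 0.09 to −0.024 with equal reads in peaks, within its counting interval. Single genes changed sign in 17 values of 10 genes (IMMT, HSPA9, NRF1, PPARGC1A, LONP1, POLG2, SPG7, TIMM44, TOMM20 and YME1L1), the last from −0.22 to 0.10 with mean fold changes. The ratio over all member reads, 0.22, was 0.10 with equal reads in peaks, 0.16 without scaling, 0.054 with promoter peaks only, 0.053 without CHCHD6 and, chosen after seeing the data, 0.18 with peaks taken by RefSeq span and 1 kb. The cristae ratio of 0.56 was 0.45 with equal reads in peaks, 0.25 with promoter peaks only and −0.061 without CHCHD6, which left 3 genes. The protease ratio of −0.05 was −0.17 with equal reads in peaks. The median over members, 0.07, was −0.044 with equal reads in peaks and 0.013 without scaling, shifts that follow from the constants, and 0.12 with the mean of peak fold changes. Of the 6 peaks at unadjusted p under 0.05, 3 were in promoters and 2 were outside CHCHD6, and 0 passed an adjusted p under 0.05 or 0.1. Genes at 0.5 or more, 1 at first, numbered 2 by RefSeq span, 6 at a limit of 0.3, and 0 at a limit of 1, with mean fold changes or without CHCHD6. Genes at −0.5 or less, 1 at first, numbered 3 with equal reads in peaks, 3 at a limit of −0.3, 2 without scaling and 0 with peaks of at least median signal. With reads halved, as for counted pairs, the intervals of YME1L1 (−0.58 to 0.14) and TOMM40 (−1.05 to 0.18) include the all-gene median, and those of CHCHD6 (0.51 to 0.72), VDAC2 (0.11 to 0.56), AFG3L2 (−0.49 to −0.03) and TFB1M (−2.25 to −0.22) do not. Where no constant or lost gene is named, the cause was not tested.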
